A study of Mus with 14 samples.

Results

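Megakaryocyte progenitors were examined in the bone marrow of 14 transplanted mice, 1 single-cell RNA library per mouse, after sorting for donor cells with Kit and without lineage markers. A cell was taken as a member when it held at least 3 unique molecular identifiers (UMIs, counted transcript molecules) of Pf4, at least 1 of Itga2b and at least 1 of Cavin2, and none of the erythroid gene Car1, the monocyte gene F13a1 or the mast cell gene Ms4a2. Members also had to pass the filter on cells, which asked for 1000 or more UMIs, 500 or more genes and less than 10% of UMIs from mitochondrial genes. The rule found 1741 cells among 70038 cells that passed this filter (2.49%). The 6 genes of the rule chose the cells, so their levels are no finding.

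Megakaryocyte progenitors commit to the lineage that makes platelets. They switch on receptors for collagen and von Willebrand factor, fill alpha granules and dense granules with clotting factors and chemokines, and lose stem cell genes as they mature. Gata1, Fli1, Runx1 and Nfe2 are the transcription factors best known for this program, and part of it is already active in a subset of blood stem cells.

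The mice were aged CD45.1+ hosts that had been lethally irradiated and given bone marrow from primary transplant recipients, and CD45.2+ cells were harvested 20 weeks later. MxCre (3 mice) was the control, in which cells carry the Mx1-driven recombinase that poly(I:C) induces. Dnmt3a (4 mice) carried the mutant gene of a DNA methyltransferase that is often mutated in clonal hematopoiesis, and the labels do not spell out the allele. Dnmt3a;Tnfr1KO (3 mice) and Dnmt3a;Tnfr2KO (4 mice) added knockout of a receptor of tumour necrosis factor alpha (TNF), encoded by Tnfrsf1a and Tnfrsf1b. They are written Tnfr1KO-labelled and Tnfr2KO below. All groups share the transplant scheme, and the primary recipients had received poly(I:C). The labels do not say which primary recipient supplied which host, so hosts in a group can come from the same donor, and p-values then measure only the spread between these hosts.

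Libraries held 3042 to 9724 cell barcodes and 62416022 to 162869740 UMIs. Dnmt3a replicate 1 stood apart, because 26.9% of its barcodes passed the filter on cells, against 66.7% to 94.4% in the other 13 libraries, and its kept cells had the highest median depth (39561 UMIs). Members had a median of 11619 to 30785 UMIs per library. No barcode of a member occurred as a member in another library, and 595 of 69438 distinct barcodes of kept cells (0.857%) occurred in more than 1 library. Of the members, 68 (3.91%) were called doublets, against 3143 (4.49%) of all kept cells, and members called doublets were retained. Reads from a gene and an overlapping or antisense gene are not separated further than the deposited counts do.

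The threshold on Pf4 was not a gap in the data. At its edge, 75 members held exactly 3 Pf4 UMIs, and 89 cells that met all other conditions held 2. Lack of Itga2b or Cavin2 kept out 1037 cells with 3 or more Pf4 UMIs. A UMI of Car1 alone kept out 205 cells, F13a1 alone 75 and Ms4a2 alone 33. Any Pf4 UMI was present in 3.60% to 28.6% of the other kept cells of a library, so a lone Pf4 UMI does not set these cells apart.

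The label of the cells was checked on platelet genes that the rule did not use. Treml1, a receptor of platelet alpha granules, stood at 99.6 CPM (UMIs of the gene scaled to a common library total) ± 24.04 in members (SD, n = 12 libraries with at least 20 members) and at 2.44 CPM in the other kept cells. Rab27b, which docks platelet granules, stood at 142 CPM ± 34.8 against 4.35 CPM. Plek, a kinase C substrate of platelets, stood at 294 CPM ± 101 against 21.0 CPM. All 3 were among the 25 genes of largest fold in members over other cells, so the markers do not go against the name. These folds describe the chosen cells and were not tested, because the rule selected cells by genes that vary with them.

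The 25 leading genes also included Vwf, Gp5 and Gp9. Vwf, the von Willebrand factor gene, stood at 110.1 CPM ± 33.7 in members and 2.40 CPM in other kept cells. Gp5 and Gp9, subunits of the von Willebrand factor receptor, stood at 111 and 70.3 CPM against 8.69 and 5.85 CPM. The thrombin receptor genes F2r and F2rl2 were on the same list. The list also held Cd9, a tetraspanin of platelets, at 565 CPM ± 62.8 against 60.6 CPM, and Rap1b, the small GTPase that activates platelet integrins, at 991 CPM ± 177 against 131 CPM. Zfpm1, the partner protein of Gata1, stood at 303 CPM ± 48.2 against 45.1 CPM.

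Some platelet genes were low in members. Tubb1, the beta tubulin of platelets, stood at 0.20 CPM in members, and Gp6, the collagen receptor gene, at 0.38 CPM. Ppbp, an alpha granule chemokine gene, stood at 7.66 CPM ± 2.30, and Clec1b, the podoplanin receptor gene, at 19.2 CPM against 0.43 CPM in other kept cells. Cd34 was lower in members (33.2 CPM ± 25.98) than in the other kept cells (174 CPM ± 32.1), whereas Kit, which the sort required as surface protein, stood at 108 and 119 CPM. Mki67, a gene of dividing cells, stood at 389 CPM ± 189.6 against 224 CPM ± 127.

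Members lay apart from stem cell-like and erythroid cells in different ways. Comparison sets were formed from the same libraries. They were 13876 cells with Hlf and without Pf4 or Car1, and 4661 cells with Car1 and Klf1 and without Pf4. The second set asked for at least 3 UMIs of Car1 and at least 1 of Klf1. Fli1 stood at 244 CPM ± 30.5 in members, 67.3 CPM ± 10.9 in the Hlf cells and 20.8 CPM ± 3.83 in the Car1 and Klf1 cells. Gata1 stood at 49.6 CPM ± 7.25 in members, 5.47 CPM ± 2.01 in the Hlf cells and 108 CPM ± 10.7 in the Car1 and Klf1 cells. Fli1 was therefore highest in members, and Gata1 lay between both sets. Klf1, the erythroid partner in that balance, stood at 7.20 CPM ± 1.53 in members and 184 CPM ± 20.3 in the Car1 and Klf1 cells, where it was a selection gene. Cd34 was highest in the Hlf cells (270.4 CPM ± 37.999).

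**Figure D1:**
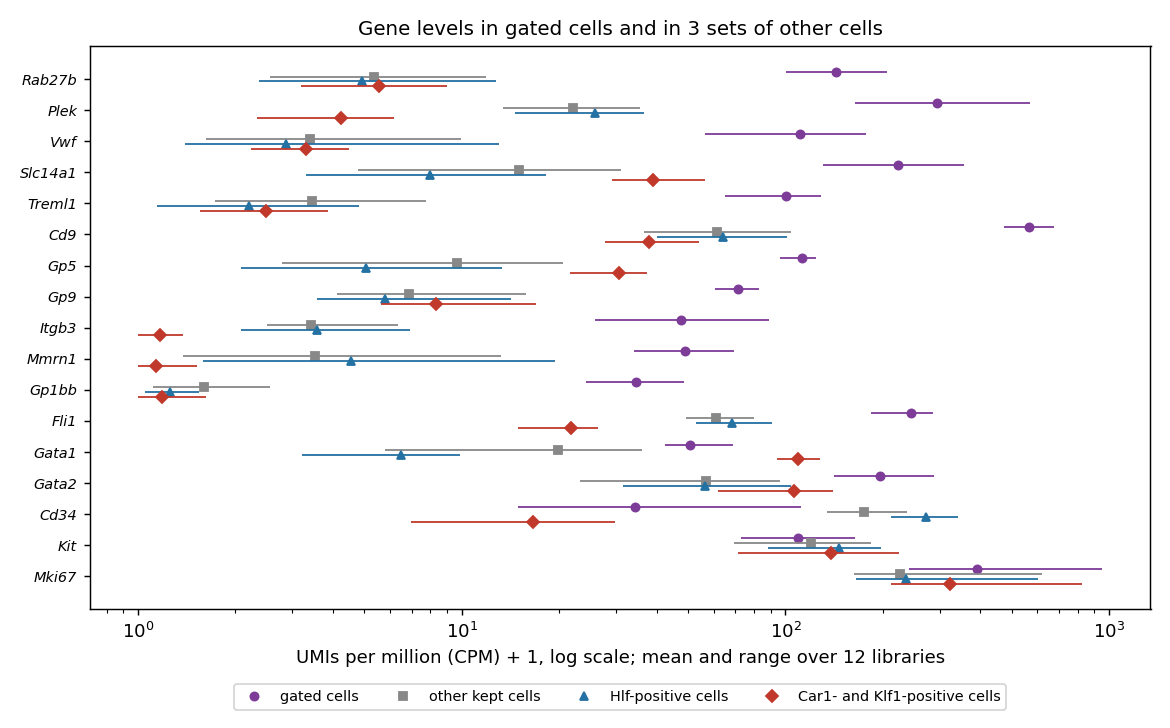
Mean CPM (log axis) of platelet, transcription factor and progenitor genes in members, the other kept cells, Hlf cells and Car1 and Klf1 cells over the 12 libraries with at least 20 members; the axis is CPM + 1, and lines run from the lowest to the highest library. The lines of Vwf (mean 110.1 against 2.40 CPM) and Treml1 (99.6 against 2.44 CPM) in members lie to the right of those in other cells, while those of Kit (108 and 119 CPM) overlap.

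Markers of other cell types were present in members, at sums below those of the other kept cells for granulocyte, basophil and mast cell, and monocyte and dendritic cell genes, and at overlapping sums for erythroid, B-lymphoid, and T and NK genes. Summed over 13 granulocyte genes, members held 286 to 4266 CPM and the other kept cells 12858 to 41184 CPM. The sums were 801 to 3061 CPM in MxCre, 390 to 4266 CPM in Dnmt3a, 286 to 1188 CPM in Tnfr1KO-labelled and 327 to 2264 CPM in Tnfr2KO libraries. No marker of this list was at 0 in any group. Over 20 erythroid genes, members held 428 to 2126 CPM in 11 libraries, against 649 to 3912 CPM in other kept cells. Tnfr1KO-labelled replicate 3 held 10906 CPM, and its haemoglobin gene Hbb-bs stood at 5560.1 CPM. By group, members held 676 to 2126 CPM in MxCre, 472 to 537 CPM in Dnmt3a, 495 to 10906 CPM in Tnfr1KO-labelled and 428 to 735 CPM in Tnfr2KO libraries. The median log2 difference from MxCre over 10 genes tested was -0.69 in Dnmt3a, 0.38 in Tnfr1KO-labelled and -0.49 in Tnfr2KO members, with 0 called. Sums of 9 basophil and mast cell genes were 10.1 to 69.1 CPM against 138 to 297 CPM in other kept cells, with Cd200r3 at 0 in all groups. Sums of 12 monocyte and dendritic cell genes were 134 to 405 CPM against 882 to 1821 CPM, with Siglech at 0. Sums of 12 B-lymphoid genes were 17.1 to 44.7 CPM against 35.7 to 239 CPM, with Igll1, Il7r, Rag1 and Ms4a1 at 0 in all groups. Sums of 8 T and NK genes were 237 to 456 CPM, against 375 to 755 CPM in other kept cells. Of these genes, Nkg7 alone stood at a mean of 407 CPM in Dnmt3a, 269 CPM in MxCre and 367 CPM in Tnfr2KO members. Cd3e, Cd3g, Trbc1, Il2rb, Klrd1 and Thy1 were at 0 in Dnmt3a members. Trbc1 and Il2rb were at 0 in MxCre members, and Cd3e and Cd3g in members of both receptor genotypes. The part of these transcripts in the results below was not tested, except where a value is given.

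Within the members, some of the platelet genes were higher where Pf4 was higher. Members of each library were ranked by their share of Pf4 UMIs and split into 3 equal sets, in the 8 libraries with at least 60 members, which gave 22 to 165 cells per set and 518 cells in each of the Pf4-low and Pf4-high sets overall. Among 5866 genes of at least 20 CPM in the low or high set, 302 were higher in the Pf4-high set of all 8 libraries (5.15% of the genes tested) and 397 were lower in all 8 (6.77% of the genes tested). The median log2 difference over these genes was -0.02. The split uses a rule gene and the members share libraries, so these are descriptions without a test. Cells of the high set were deeper in 7 of the 8 libraries (mean 13705 to 24488 UMIs against 10423 to 21689), and less deep in Tnfr1KO-labelled replicate 2. The part of depth was not tested.

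Lists of platelet genes differed in how many genes were higher in the Pf4-high set. Of 20 receptor genes, 13 were higher in all 8 libraries and 1 (Cd63) lower, with a median log2 difference of 0.55. Of 9 granule cargo genes, 5 were higher (Vwf, Selp, Mmrn1, Serpine2 and Timp3) and 3 lower (Srgn, Angpt1 and Ctla2a), with a median of 0.60. Of 28 platelet signalling genes, 12 were higher and none lower (median 0.30). The granule assembly list had 3 higher (Rab27b, Slc35d3 and Stx11) and 1 lower of 14 (median 0.12), the cytoskeleton list 5 higher and none lower of 20 (median 0.10), and the thrombopoietin pathway list 2 higher and 1 lower of 11 (median -0.09). Vwf went from 39.7 CPM ± 24.6 in the low set to 183 CPM ± 25.3 in the high set (SD, n = 8), and Clec1b from 2.27 CPM ± 2.46 to 34.6 CPM ± 19.9. Gp1bb, the beta subunit of the von Willebrand factor receptor, went from 12.9 CPM ± 4.04 to 48.1 CPM ± 13.9. Each of these 3 was higher in 8 of 8 libraries.

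Some of the stem and progenitor genes were lower where Pf4 was higher. Of 13 stem cell genes, 7 were lower in all 8 libraries (Hlf, Mecom, Hoxa9, Meis1, Kit, Cd34 and Gcnt2) and 1 (Mycn) higher, with a median log2 difference of -0.30. Kit went from 145 CPM ± 27.8 to 69.1 CPM ± 20.5, and Cd34 from 48.8 CPM ± 14.8 to 14.5 CPM ± 8.25. The granulocyte genes Mpo, which encodes myeloperoxidase, and Prtn3, a protease gene, were also lower in all 8, Mpo going from 272 CPM ± 158 to 49.5 CPM ± 22.7. Lineage transcription factors split: Zfpm1, Mef2c and Mafg were higher and Meis1, Erg, Etv6, Lmo2, Myb and Ikzf1 lower in all 8, of 22. Gata1 (higher in 5 of 8, 49.7 and 50.9 CPM), Nfe2 (2 of 8) and Gata2 (1 of 8) did not share the direction of the receptors, and Fli1 was higher in 7 of 8. Of 42 S phase genes 0 were higher and 2 lower in all 8 (median -0.17), and of 48 G2 and M phase genes 0 were higher and 6 lower (median -0.11). Mki67 was higher in 2 of 8.

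**Figure D2:**
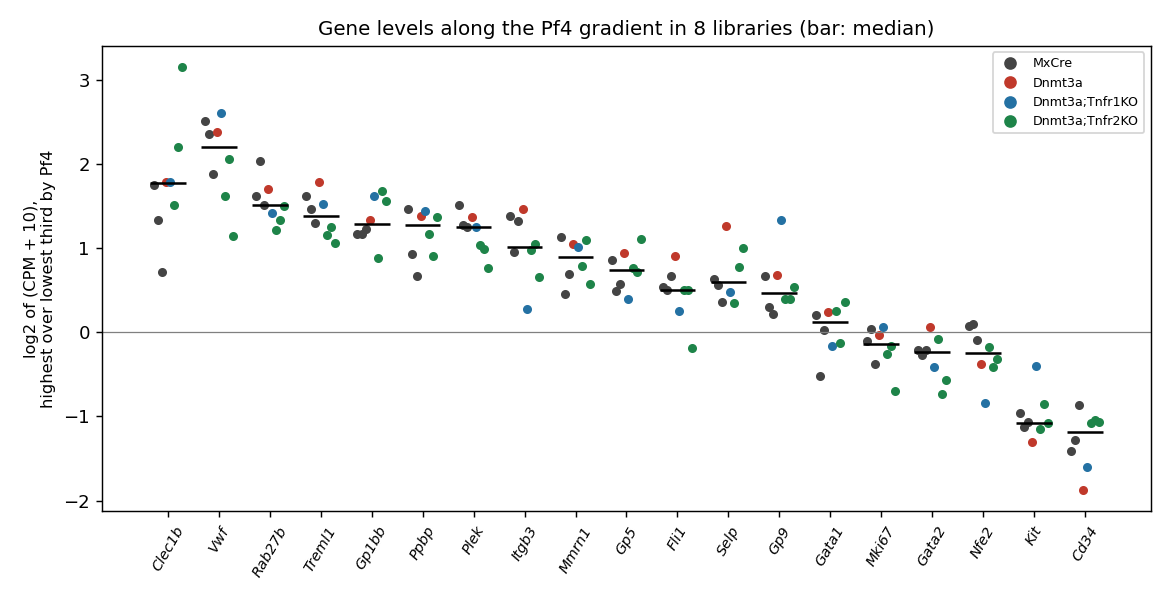
Log2 ratio of CPM (10 added) in the Pf4-high over the Pf4-low set of members, coloured by group, with a bar at the median, 1 point per library for 19 genes in the 8 libraries with at least 60 members. Vwf and Clec1b lie above 0 in all 8 libraries, Kit and Cd34 below 0 in all 8, and Gata1 on both sides.

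The share of members among kept cells was highest in MxCre mice. MxCre replicates 1 to 3 held 235 (3.804%), 203 (7.06%) and 497 (10.8%) members, a mean of 7.21% ± 3.49 (SD, n = 3). Dnmt3a replicates 1 to 4 held 43 (2.199%), 119 (4.32%), 1 (0.0174%) and 9 (0.158%), a mean of 1.67% ± 2.03 (n = 4). Replicate 2 of Dnmt3a lay within the range of MxCre, and replicates 3 and 4 held nearly no member. The Wilson 95% interval of the share in Dnmt3a replicate 3 was 0.00307% to 0.0986%, and these intervals cover counting error only.

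The receptor genotypes also had low shares, without overlap with MxCre. Tnfr1KO-labelled replicates 1 to 3 held 53 (0.817%), 67 (1.82%) and 49 (1.54%) members, a mean of 1.39% ± 0.516 (n = 3). Tnfr2KO replicates 1 to 4 held 180 (2.32%), 152 (2.57%), 113 (1.76%) and 20 (0.294%), a mean of 1.74% ± 1.02 (n = 4). All 7 mice lay below the lowest MxCre mouse. The exact two-sided permutation p was 0.1 for Tnfr1KO-labelled against MxCre and 0.0571 for Tnfr2KO against MxCre, in each case the smallest that these numbers of mice allow. It was 0.114 for Dnmt3a against MxCre, where 0.0571 was the smallest possible. Adjusted over 6 comparisons (Benjamini-Hochberg), all 3 were 0.229. The same shares against Dnmt3a differed by -0.281 and 0.0643 percentage points (exact permutation p 0.971 and 0.943), and Tnfr2KO against Tnfr1KO-labelled by 0.345 (exact permutation p 0.629).

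Deeper cells reach the Pf4 threshold more easily, so cells were also thinned to 5000 UMIs, leaving out 6876 shallower cells (660 in MxCre, 2290 in Dnmt3a, 2242 in Tnfr1KO-labelled and 1684 in Tnfr2KO libraries). The rule, applied anew to the thinned counts, found 830 cells. Thinning can also remove a UMI of Car1, F13a1 or Ms4a2, so these cells need not all be members at full depth. Mean shares were 3.47% ± 1.71 in MxCre, 1.003% ± 1.05 in Dnmt3a, 0.770% ± 0.191 in Tnfr1KO-labelled and 0.929% ± 0.575 in Tnfr2KO libraries. MxCre remained the highest group by mean. A share in the sorted cells cannot tell fewer megakaryocyte progenitors apart from more of the other Kit-positive cells.

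**Figure D3:**
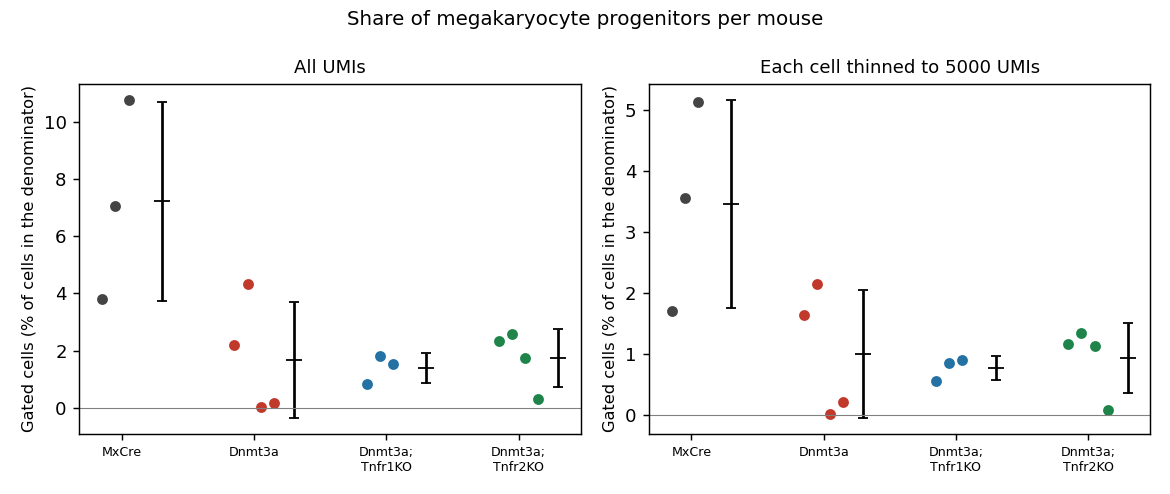
Members as a percent of kept cells (left), and of cells with at least 5000 UMIs after thinning to that depth (right), 1 point per mouse in 4 groups, with the group mean and SD beside the points. On the left the MxCre mice lie at 3.804% to 10.8%, above all Tnfr1KO-labelled and Tnfr2KO mice, and the Dnmt3a mice spread from 0.0174% to 4.32%.

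Transcript levels were compared over summed UMIs of the members of each mouse. Only 12 libraries had at least 20 members, so Dnmt3a was represented by replicates 1 and 2, and its replicates 3 and 4 were left out of each gene test. After the filter on low counts 10009 genes were tested in 1 edgeR quasi-likelihood model, and a gene was called at a Benjamini-Hochberg adjusted p below 0.05.

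The targeted genes were read first. Dnmt3a transcripts stood at 42.7 to 47.6 CPM in MxCre, 44.2 and 47.7 CPM in Dnmt3a, 38.6 to 51.2 CPM in Tnfr1KO-labelled and 29.9 to 47.2 CPM in Tnfr2KO members, and the gene was not called in any comparison. Tnfrsf1a stood at 10.9, 17.7 and 15.2 CPM in Tnfr1KO-labelled mice and at 24.1, 21.3 and 21.9 CPM in MxCre. All 3 Tnfr1KO-labelled mice lay below the 3 MxCre mice, but the gene was not called (log2 -0.56, SE 0.26, edgeR adjusted p 0.736). Dnmt3a members, at 16.7 CPM in both mice, lay within the Tnfr1KO-labelled range, so directions for these mice rest on their label. Tnfrsf1b stood at 2.48, 4.33, 5.45 and 0 CPM in Tnfr2KO mice and at 9.41, 8.28 and 8.95 CPM in MxCre. All 4 Tnfr2KO mice lay below the 3 MxCre mice, and the log2 difference was -1.28 (SE 0.33, edgeR adjusted p 0.0834). The libraries read the 3' end of transcripts, and the deleted parts of the genes are not given in the sources used here, so where the 3' end lies outside the deletion these counts check nothing.

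The effect of the mutation is addressed by Dnmt3a against MxCre, where 153 genes were called (102 higher and 51 lower, 1.53% of the genes tested). That split was not kept by DESeq2 (113 higher and 120 lower), by a fit of only these groups (51 and 67) or with the replicate number as a block (52 and 49). Mrvi1, whose product is a target of the cGMP pathway that restrains platelet activation, rose. It stood at 64.4 and 41.0 CPM in Dnmt3a and 14.005, 9.53 and 10.7 CPM in MxCre, with both Dnmt3a mice above all MxCre mice (log2 2.17, SE 0.28, edgeR adjusted p 4.23e-04). Pde5a, the phosphodiesterase that breaks down cGMP, also rose, from 40.4 CPM ± 3.33 in MxCre (n = 3) to 72.8 CPM ± 13.7 in Dnmt3a (n = 2; log2 0.84, SE 0.18). The cytoskeletal gene Myh9, a nonmuscle myosin heavy chain with a central part in platelet formation, rose from 185 CPM ± 17.2 to 321 CPM ± 118, and its 2 Dnmt3a values were 405 and 238 CPM. Mrvi1 was also higher in the Pf4-high than the Pf4-low set (39.8 CPM ± 21.5 against 5.02 CPM ± 5.82), as was Pde5a (67.5 CPM ± 15.2 against 27.4 CPM ± 9.57). The median Pf4 count of members was 101 and 73 UMIs in Dnmt3a replicates 1 and 2 against 39 to 56 in MxCre. Those counts are not scaled to depth, whereas the sets were split by the share of Pf4 UMIs. Members of these Dnmt3a replicates had a median of 30785 and 21366 UMIs in total, against 16938 to 19622 in MxCre. The part of the Pf4 gradient and of depth in the differences of Mrvi1 and Pde5a was not tested.

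Tnfaip2, a gene that TNF induces, fell to 11.6 and 19.2 CPM in Dnmt3a from 42.2, 43.2 and 45.9 CPM in MxCre. All values of Dnmt3a lay below those of MxCre, and the log2 difference was -1.44 (SE 0.19, edgeR adjusted p 4.85e-04). The other kept cells of the same libraries were lower too, with Tnfaip2 at 40.7 CPM in Dnmt3a and 68.2 CPM in MxCre libraries. Ifi30, a lysosomal thiol reductase gene, fell to 10.3 and 7.97 CPM from 25.2, 24.3 and 27.2 CPM (log2 -1.53, SE 0.27), and stood at 13.1 and 24.7 CPM in other kept cells. F11r, the junctional adhesion molecule that platelets carry, fell from 17.1 CPM ± 3.93 to 6.85 CPM ± 0.570. Psma8, a proteasome subunit gene of germ cells, had 389 UMIs in MxCre (16.8 to 25.4 CPM) and 0 in both Dnmt3a libraries. That was at least 29.9-fold lower on a floor of 3 UMIs over the group. The other kept cells stood at 14.7 CPM in MxCre and 0 in Dnmt3a libraries. They stood at 8.70 CPM ± 6.45 in Tnfr1KO-labelled and 9.70 CPM ± 17.9 in Tnfr2KO libraries, which carry the Dnmt3a label too. In members of these, Psma8 was not called against MxCre (log2 -1.11, SE 0.71, and -2.38, SE 0.68).

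Histone genes were among the calls of this comparison. Of 47 tested, 16 rose (of 102 higher calls in all) and 3 fell, with a median log2 difference of 0.78 against 0.003 over all genes. Hist1h1e stood at 973 and 419.7 CPM in Dnmt3a and 240.3, 273 and 281 CPM in MxCre. Both Dnmt3a values were above MxCre, and that of replicate 1 was far above that of replicate 2. Summed over 47 histone genes, Dnmt3a replicate 1 had 6905 CPM and replicate 2 had 3208 CPM, against 3091 to 4334 CPM in MxCre. In other kept cells Hist1h1e stood at 781 CPM in Dnmt3a and 205 CPM in MxCre libraries. Mki67 in members followed the same order, at 823 and 389 CPM in Dnmt3a and 261 to 313 CPM in MxCre.

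Without Dnmt3a replicate 1, 12 genes were called, and all 12 were among the 153. They included Mrvi1, Tnfaip2, Ifi30 and Clec11a, a secreted growth factor gene, but no histone gene. Mrvi1 then had a log2 difference of 1.85 (edgeR adjusted p 0.0194), Tnfaip2 -1.19 (0.0107) and Ifi30 -1.68 (0.0473), while Hist1h1e had 0.67 (0.352), Mki67 0.44 (0.639), Myh9 0.37 (0.583) and Pde5a 0.66 (0.312). Psma8, F11r, Ifit2, Ripk1, Cks2 and S100a4 were lost as well. Without Dnmt3a replicate 2 the count was 1512, and without any 1 MxCre mouse it was 36 to 42. In fits without a Dnmt3a library the lone one is assumed to vary like the libraries of the other groups.

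The lists of megakaryocyte biology held calls at a share near the 1.53% over all genes tested in this comparison, so their counts are no result about the lists. None of 24 lineage transcription factor genes (median log2 0.003), 14 granule cargo genes (0.03), 21 granule assembly genes (0.01), 19 thrombopoietin pathway genes (0.11) or 17 stem cell genes (-0.18) was called. F11r was the 1 call among 25 receptor genes (0.04), Myh9 among 23 cytoskeleton genes (0.06) and Pde5a among 28 signalling genes (0.17). Vwf stood at 138 and 116 CPM in Dnmt3a against 89.1 to 98.01 CPM in MxCre, and Gp1bb at 40.6 and 47.5 CPM against 23.1 to 28.9 CPM, and neither was called. In G2 and M phase genes (52, median -0.05) Mki67 rose and Cks2 fell. Of all calls in these lists, that of Tnfaip2 alone held without Dnmt3a replicate 1. Among interferon genes (34, -0.26) Ifit2 rose, among NF-kB genes (25, -0.05) Tnfaip2 fell, and among TNF receptor and ligand genes (7, -0.14) Ripk1 rose. S100a4 of the monocyte list fell. None of 42 S phase genes was called (0.06).

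Tnfr1KO-labelled members were compared with Dnmt3a to ask what loss of Tnfr1 adds. Here 35 genes were called (18 higher and 17 lower, 0.35% of the genes tested; 36 and 14 in a fit of only these groups, 32 and 14 with the replicate block), and none belonged to any of the 21 lists, which do not hold the histone and ribosomal protein genes counted by name here. Ifi30 rose to 32.8, 32.4 and 23.9 CPM from 10.3 and 7.97 CPM, with no overlap between the groups (log2 1.74, SE 0.31, edgeR adjusted p 0.0132). Against MxCre its log2 difference in Tnfr1KO-labelled members was 0.21 (SE 0.22). In other kept cells Ifi30 stood at 13.1 CPM in Dnmt3a, 31.2 CPM in Tnfr1KO-labelled and 24.7 CPM in MxCre libraries. Dnmt3a was therefore the low group of these 3 in both sets of cells. Rps29, a ribosomal protein gene, rose to 8696, 9856 and 9898 CPM from 2954 and 3844 CPM, and 5 of 89 ribosomal protein genes rose (median log2 0.28). Rps29 stood at 7203 to 9720 CPM in MxCre members, and at 3702 CPM in Dnmt3a, 8808 CPM in Tnfr1KO-labelled and 8115 CPM in MxCre libraries in other kept cells, so Dnmt3a was the low group of these 3 in both. None of the 89 was called in Tnfr1KO-labelled against MxCre. Of 47 histone genes, 9 fell (median -0.47). Against MxCre the median of these genes was 0.02 in Tnfr1KO-labelled members, and 0.78 in Dnmt3a members. Dnmt3a was therefore the high group of these 3 by median. Hist2h2ac stood at 13.7, 19.3 and 11.97 CPM against 369.8 and 123 CPM (log2 -3.96, SE 0.44, edgeR adjusted p 1.35e-04). It was also called lower in Tnfr1KO-labelled than in MxCre members (log2 -2.20, SE 0.44, edgeR adjusted p 0.0365). Without Dnmt3a replicate 1, Hist2h2ac was the only gene called, at a log2 difference of -2.99, and Ifi30 had 1.89 (adjusted p 0.0616). Without Dnmt3a replicate 2 the count was 651.

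Tnfr2KO against Dnmt3a asks the same of Tnfr2, and it shares its Dnmt3a mice with the preceding comparison. It gave 45 calls (19 higher and 26 lower, 0.45% of the genes tested), whereas DESeq2 gave 48 higher and 19 lower. Ifi30 rose here too, to 25.2, 22.0, 20.2 and 48.9 CPM (log2 1.47, SE 0.28, edgeR adjusted p 0.0129). Against MxCre its log2 difference in Tnfr2KO members was -0.05 (SE 0.18). In other kept cells it stood at 25.2 CPM in Tnfr2KO and 13.1 CPM in Dnmt3a libraries, so Dnmt3a was again the low group. Clec11a fell to 11.7, 9.82, 7.002 and 5.43 CPM from 31.6 and 48.2 CPM, without overlap (log2 -2.07, SE 0.31, edgeR adjusted p 0.00179). Clec11a stood at 24.1, 15.1 and 10.8 CPM in MxCre and at 10.9, 5.40 and 11.97 CPM in Tnfr1KO-labelled members, so Dnmt3a was the high group. Of 47 histone genes 9 fell (median -0.55). Their sum was nonetheless 6193 CPM in Tnfr2KO replicate 1, near Dnmt3a replicate 1, and 2193 to 2781 CPM in the other 3 Tnfr2KO mice. In Tnfr2KO against MxCre members the histone median was 0.005, with 0 called. Without Dnmt3a replicate 1, 16 genes were called, 15 of them among the 45, with Clec11a at a log2 difference of -2.31. Ifi30 was lost (log2 1.61, adjusted p 0.0718), and of the histone genes only Hist2h2ac was still called. Without Dnmt3a replicate 2 the count was 986.

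The receptor genotypes were also set against MxCre, as comparisons added after the numbers of members had been seen, because neither Dnmt3a library is in the groups compared. The shared model still used the Dnmt3a libraries for its filter on low counts and its estimate of spread. Both comparisons share the MxCre mice. Tnfr1KO-labelled against MxCre gave 27 calls (14 higher and 13 lower, 0.27% of the genes tested, and 15 and 42 in a fit of only these groups). Tnfr2KO against MxCre gave 79 (26 higher and 53 lower, 0.789% of the genes tested). That split was 20 and 24 by DESeq2, 17 and 23 with the gate on thinned counts, and 37 and 72 in a fit of only these groups.

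Slc35d3, a transporter gene needed to make platelet dense granules, was called higher in each. It stood at 32.8, 36.3 and 29.4 CPM in Tnfr1KO-labelled, 19.9, 30.3, 38.9 and 19.0 CPM in Tnfr2KO and 17.3, 10.5 and 12.04 CPM in MxCre members. All 7 mice lay above the MxCre mice, and Dnmt3a lay at 16.7 and 18.5 CPM, within or just above MxCre. The log2 difference from MxCre was 1.32 (SE 0.25, edgeR adjusted p 0.0299) in Tnfr1KO-labelled and 1.07 (SE 0.21, adjusted p 0.0138) in Tnfr2KO members. It was lost without any of 5 and of 3 of the 12 libraries. In other kept cells Slc35d3 stood at 0.381 CPM or less in these 3 groups. It was higher in the Pf4-high than the Pf4-low set (39.4 CPM ± 17.6 against 7.27 CPM ± 5.19). The median Pf4 count of members was 47 to 70 UMIs in Tnfr1KO-labelled, 11 to 55.5 in Tnfr2KO and 39 to 56 in MxCre libraries. Those counts are not scaled to depth. The median total of members was 13168 to 18621 UMIs in Tnfr1KO-labelled, 11619 to 21843.5 in Tnfr2KO and 16938 to 19622 in MxCre libraries. The part of the Pf4 gradient and of depth was not tested. Slc35d3 was the 1 call among 21 granule assembly genes in both comparisons (medians -0.03 and -0.02).

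Timp3, which encodes an inhibitor of metalloproteinases, set the receptor genotypes apart. It stood at 19.2, 30.1 and 18.5 CPM in Tnfr1KO-labelled, 101, 49.7, 51.3 and 65.1 CPM in Tnfr2KO and 53.2, 65.0 and 56.5 CPM in MxCre members. The 3 Tnfr1KO-labelled mice were the lowest, with Dnmt3a at 41.2 and 37.7 CPM. Timp3 fell in Tnfr1KO-labelled against MxCre (log2 -1.31, SE 0.27, edgeR adjusted p 0.0476) and was higher in Tnfr2KO than in Tnfr1KO-labelled members (log2 1.54, SE 0.27, adjusted p 0.033). Each of these calls was lost without any of 9 of the 12 libraries. Timp3 was also higher in the Pf4-high than the Pf4-low set (84.3 CPM ± 32.4 against 29.02 CPM ± 7.84), and the part of that was not tested.

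S100a6 and S100a10 encode calcium-binding proteins. S100a6 fell in Tnfr2KO members. It stood at 78.1, 42.8, 61.5 and 57.0 CPM in Tnfr2KO and 165, 151 and 119 CPM in MxCre members, without overlap (log2 -1.27, SE 0.21, edgeR adjusted p 0.00324). It stood at 58.8, 91.8 and 74.0 CPM in Tnfr1KO-labelled members, where it was not called (adjusted p 0.125), and at 54.8 and 104 CPM in Dnmt3a members. S100a10, the partner of annexin A2, fell to 87.6, 111 and 101 CPM in Tnfr1KO-labelled from 200.4, 192 and 214 CPM in MxCre members (log2 -1.01, SE 0.20, edgeR adjusted p 0.0355), and it fell in Tnfr2KO members too (log2 -0.81, SE 0.18, adjusted p 0.0292). S100a6 was lower in the Pf4-high set as well (51.9 CPM ± 19.7 against 143 CPM ± 71.2), and in other kept cells it stood at 154 CPM in MxCre and 68.5 CPM in Tnfr2KO libraries. The part of either in the difference was not tested. Apoe, a lipoprotein gene, fell in Tnfr1KO-labelled members to 455 CPM ± 53.5 from 810.02 CPM ± 115 (log2 -0.83, SE 0.18). In other kept cells Apoe stood at 150 CPM in Tnfr1KO-labelled and 516 CPM in MxCre libraries. S100a10 stood there at 208 CPM in Tnfr1KO-labelled, 203 CPM in Tnfr2KO and 282 CPM in MxCre libraries. Whether these falls differ between members and other kept cells was not tested.

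Mecom, a transcription factor of stem cells, was the 1 call among 17 stem cell genes in Tnfr2KO against MxCre (median log2 -0.42). It fell to 15.6, 12.4, 24.1 and 16.3 CPM from 28.7, 35.4 and 36.8 CPM, without overlap (log2 -1.07, SE 0.19, edgeR adjusted p 0.00761), and the call was lost without any of 4 of the 12 libraries. Of those 17 genes, 1 had a positive log2 difference. Mecom stood at 17.8, 26.2 and 15.2 CPM in Tnfr1KO-labelled members, also below MxCre, where it was not called. Mecom was also lower in the Pf4-high than the Pf4-low set (16.5 CPM ± 7.11 against 34.005 CPM ± 14.03), and in other kept cells it stood at 20.3 CPM in MxCre and 7.86 CPM in Tnfr2KO libraries, and the part of either was not tested. Gas2l3, which links actin and microtubules in dividing cells, fell to 35.8, 35.5, 31.1 and 43.4 CPM from 58.4, 76.0 and 71.2 CPM (log2 -0.95, SE 0.16, edgeR adjusted p 0.00312). Tnfaip2 fell as well, to 26.1 CPM ± 3.58 from 43.7 CPM ± 1.88. The remaining list calls in this comparison were F11r, Ltf, S100a4 and Gata3, all lower.

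In Tnfr1KO-labelled members Pink1, a kinase gene of mitochondrial quality control, stood at 38.3, 38.6 and 38.1 CPM. MxCre members had 16.6, 14.1 and 13.1 CPM and Tnfr2KO members 11.7, 9.82, 19.5 and 10.9 CPM, all below. The log2 difference was 1.403 against MxCre (SE 0.22, edgeR adjusted p 0.00312), and -1.63 in Tnfr2KO against Tnfr1KO-labelled members (SE 0.24, adjusted p 0.00524). Dnmt3a members had 17.4 and 26.5 CPM, and Tnfr1KO-labelled against Dnmt3a was not called (log2 0.75, SE 0.25, adjusted p 0.222). In other kept cells Pink1 stood at 25.9 CPM in Tnfr1KO-labelled, 27.4 CPM in Dnmt3a, 15.5 CPM in Tnfr2KO and 15.2 CPM in MxCre libraries. Npr1, a natriuretic peptide receptor gene that makes cGMP, fell to 12.3, 1.54 and 2.18 CPM from 25.6, 24.3 and 29.3 CPM in MxCre members (log2 -2.57, SE 0.41, edgeR adjusted p 0.00476). In other kept cells Npr1 stood at 1.65 CPM in Tnfr1KO-labelled and 8.90 CPM in MxCre libraries.

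**Figure D4:**
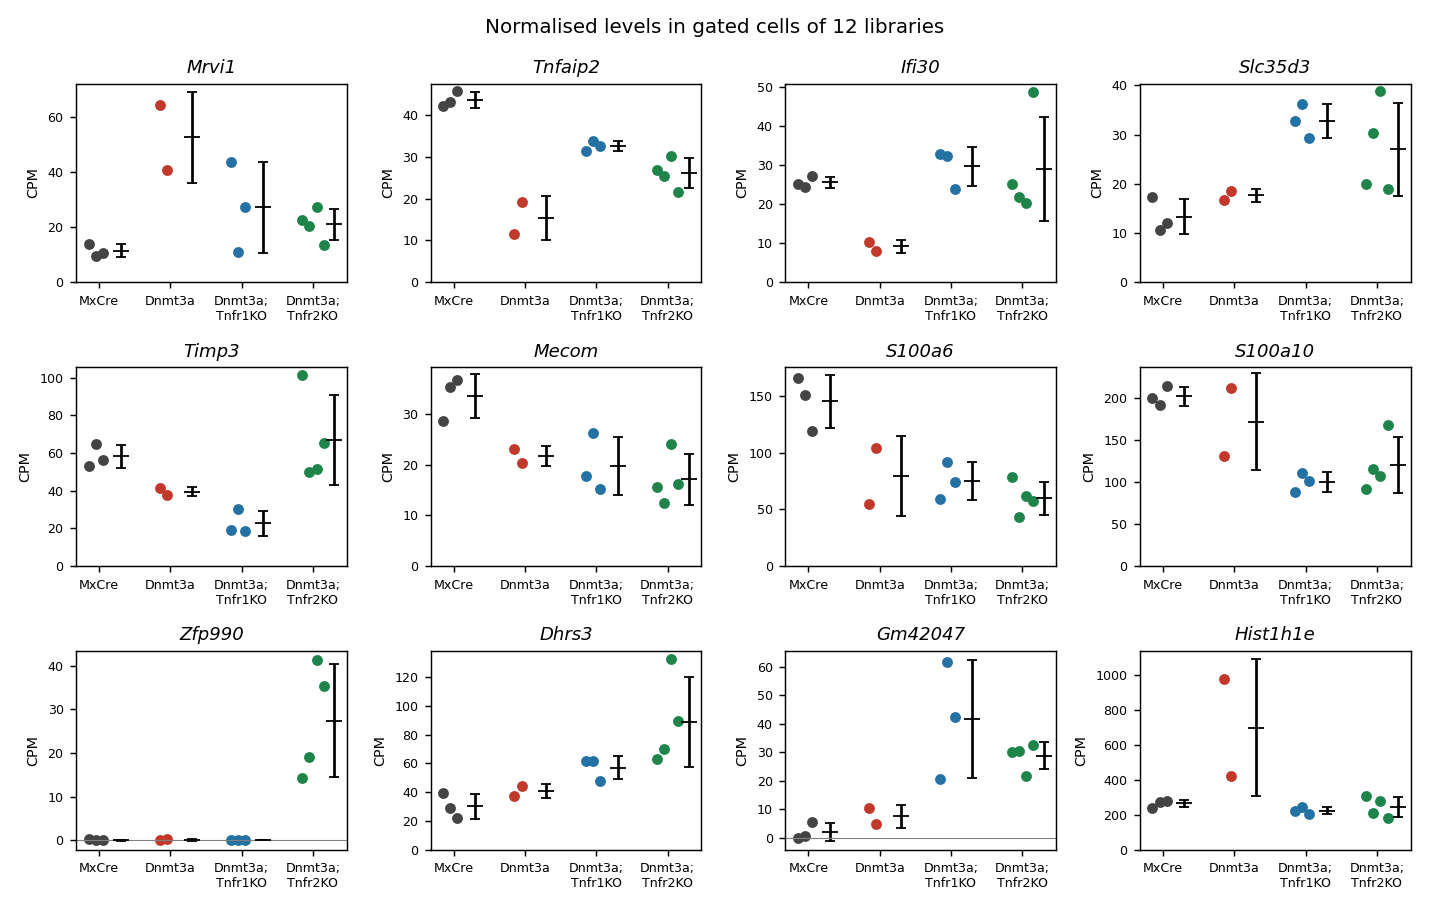
CPM per mouse of named genes in members of the 12 libraries tested, by group, with the group mean and SD beside the points. Mrvi1 lies at 41.0 and 64.4 CPM in Dnmt3a against 9.53 to 14.005 CPM in MxCre, Timp3 is lowest in the 3 Tnfr1KO-labelled mice, and Slc35d3 lies above MxCre in all mice of both receptor genotypes.

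Direct comparison of the receptor genotypes gave 4 calls (2 higher and 2 lower in Tnfr2KO, 0.04% of the genes tested), namely Zfp990 and Timp3 higher and Pink1 and C1qa lower. C1qa falls outside the rule for named genes and is given only to complete the count. Zfp990, Pink1 and C1qa lie within 12 Mb of Tnfrsf1b, a window chosen after the values had been seen. There 3 of 184 genes tested were called (1.63%), against 1 of 9574 elsewhere (0.0104%). Zfp990 lies on chromosome 4 at 145510759 to 145538251 (GRCm38) and encodes a zinc finger protein. It stood at 14.2, 19.1, 41.2 and 35.3 CPM in Tnfr2KO members and had 0 UMIs in all 3 Tnfr1KO-labelled libraries, at least 21.4-fold higher on a floor of 3 UMIs over the group. No more than 1 UMI was found in MxCre or in Dnmt3a members.

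Genes near the knocked-out Tnfrsf1b made up part of the Tnfr2KO calls. Tnfrsf1b lies on chromosome 4 at 145212368 to 145246870. Of 72 called genes in Tnfr2KO against MxCre with a known place, 13 lay on chromosome 4 (18.1%), which holds 600 of 9758 placed genes tested (6.15%). Within 12 Mb of Tnfrsf1b, 12 of 184 genes tested were called (6.52%), against 60 of 9574 elsewhere (0.627%). The window was chosen after the values had been seen. They included Dhrs3, Zfp990, Zfp992, A430005L14Rik, Dffb and Lrrc47, which were higher, and Zfp982, Pusl1, C1qtnf12, Tnfrsf18 and Noc2l, which were lower. The same window held 1 call (Pink1) in Tnfr1KO-labelled against MxCre. In that comparison the window of the same size around Tnfrsf1a on chromosome 6 held 0 calls among 134 genes. The window around Tnfrsf1b held 4 calls in Tnfr2KO against Dnmt3a (2.17% of genes tested there, against 0.292% elsewhere). In Tnfr2KO against Tnfr1KO-labelled members it held 3 (1.63% against 0.0104%).

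Dhrs3, a retinal reductase gene at 144892534 to 144928209, stood at 62.8, 69.9, 132 and 89.6 CPM in Tnfr2KO and 39.4, 29.1 and 22.2 CPM in MxCre members (log2 1.52, SE 0.22, edgeR adjusted p 8.55e-04). Tnfr1KO-labelled members lay between, at 61.6, 61.7 and 47.9 CPM. The other kept cells of the same libraries moved likewise, Dhrs3 from 10.5 CPM in MxCre to 34.1 CPM in Tnfr2KO, Zfp990 from 0.117 to 19.0 CPM, Pusl1 from 23.0 to 5.34 CPM and C1qtnf12 from 53.2 to 10.97 CPM. The direction was therefore the same outside the members. Linked sequence of the strain in which the knockout was made and loss of the receptor cannot be told apart by this design.

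**Figure D5:**
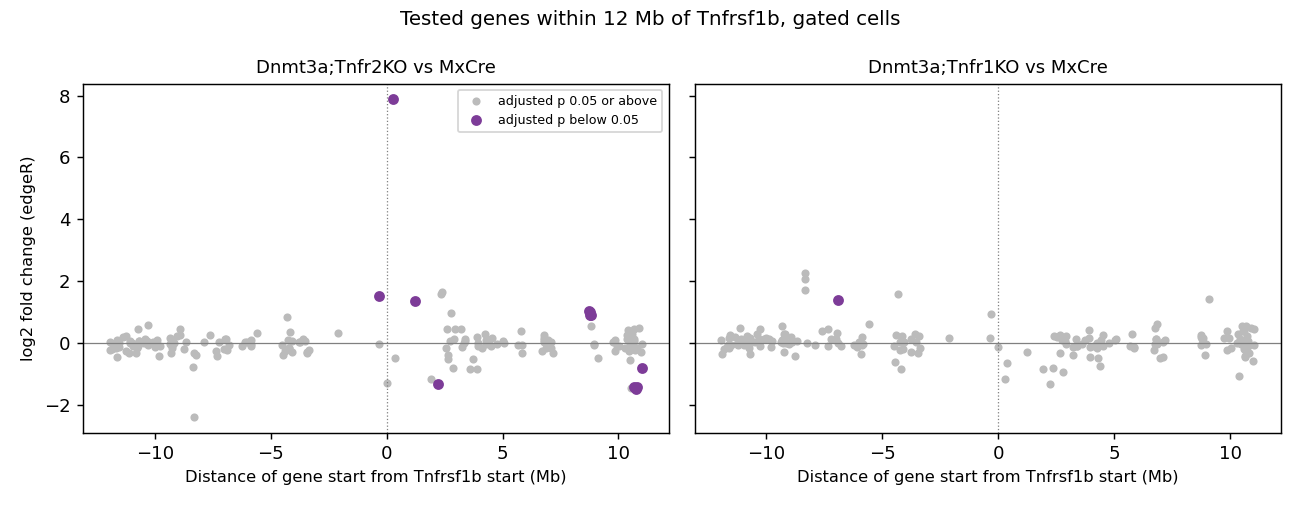
Log2 difference in members of Tnfr2KO (left) and Tnfr1KO-labelled (right) against MxCre by distance of the gene start from that of Tnfrsf1b in Mb, 1 point per gene tested within 12 Mb, with called genes in purple. Of 184 genes, 12 were called on the left and 1 (Pink1) on the right.

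Differences in members were set against those in all other kept cells of the same libraries in an edgeR model with the library as a factor, over 15171 genes. In Dnmt3a against MxCre 19 genes differed between both cell sets (18 with a higher and 1 with a lower log2 difference in members, 0.125% of the genes tested). Among them were platelet genes with lower levels in the other kept cells of Dnmt3a than in those of MxCre. Cd9 stood at 599 and 540.3 CPM in members of Dnmt3a and MxCre and at 53.7 and 94.6 CPM in other kept cells (difference of log2 differences 0.98, SE 0.16, edgeR adjusted p 0.00133). F2r, the thrombin receptor gene, stood at 166 and 159 CPM in members and at 15.9 and 32.1 CPM in other kept cells (1.02, SE 0.22, adjusted p 0.0455). Trpc6, a calcium channel gene, stood at 59.5 and 39.3 CPM in members and 0.996 and 3.81 CPM in other kept cells (2.17, SE 0.44, adjusted p 0.0248). The share of members was 2.199% and 4.32% in the Dnmt3a libraries fitted here and 3.804% to 10.8% in MxCre, ranges that overlap. Over all mice the shares were not shown to differ (exact permutation p 0.114). Cells just outside the gate remain among the other kept cells, so cell numbers and levels in them cannot be told apart.

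Neutrophil granule genes were also among the 19. Camp, an antimicrobial peptide gene, stood at 324 and 145 CPM in members of Dnmt3a and MxCre and at 80.6 and 1258 CPM in other kept cells. In Tnfr1KO-labelled against Dnmt3a 11 genes differed (all lower in members, 0.0725% of the genes tested), and in Tnfr2KO against Dnmt3a 10 (all lower, 0.0659% of the genes tested). S100a9 stood at 15.7 CPM in Tnfr1KO-labelled and 556 CPM in Dnmt3a members, and at 1918 and 244 CPM in other kept cells. Dnmt3a was thus the higher of these groups in members and the lower in other kept cells. The granulocyte sum of members was 390.1 CPM in Dnmt3a replicate 1 and 4266 CPM in replicate 2, and without replicate 2 the counts of these differences were 0 and 1. Between both receptor genotypes 0 genes differed by edgeR (842 at an unadjusted p below 0.05, 868 with the size factors of DESeq2, also 0 called, 0% of the genes tested), and the full DESeq2 test was not run for this difference. The names of these genes were chosen after their values were seen.

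Response lists are described by their medians in members of the receptor genotypes, since at the shares called over all genes tested (0.04% to 0.789%) lists of this size would hold almost no call. Immediate early genes had a median log2 difference of 0.79 over 18 genes in Tnfr1KO-labelled against Dnmt3a (17 positive), 0.73 against MxCre (18 positive), and 0.23 and 0.10 in Tnfr2KO against Dnmt3a and MxCre, with no gene called. In Tnfr2KO against Tnfr1KO-labelled it was -0.58 (1 positive). These medians rest on Tnfr1KO-labelled replicate 1, whose members held 2652 CPM summed over 25 immediate early genes, against 946 and 753 CPM in replicates 2 and 3 and 667 to 828.9 CPM in MxCre members. Its other kept cells were high as well (1346 CPM, against 637 to 1033 CPM in the other 11 libraries). Without it the 3 medians were 0.10 against Dnmt3a, 0.03 against MxCre and 0.17 in Tnfr2KO against Tnfr1KO-labelled members. NF-kB genes, which TNF receptors activate, had medians of 0.31 and 0.18 in Tnfr1KO-labelled against Dnmt3a and MxCre, and -0.07 and -0.20 in Tnfr2KO against the same groups. The same replicate was the highest in summed NF-kB genes (821 CPM in members and 855 CPM in other kept cells, with replicates 2 and 3 at 586 and 556 CPM in members), and without it the Tnfr1KO-labelled medians were 0.23 and -0.01. Summed NF-kB genes in Tnfr2KO members were at 464, 509, 534 and 668 CPM in replicates 1 to 4. MxCre members held 554 to 602 CPM, so Tnfr2KO libraries lay on both sides of that range. Interferon genes had medians of 0.06 and -0.10 in Tnfr1KO-labelled and -0.06 and -0.26 in Tnfr2KO members. Granulocyte genes had medians of -2.93 and -2.88 in Tnfr1KO-labelled members against Dnmt3a and MxCre, in which none of 12 was called. The first of these was 0.72 without Dnmt3a replicate 2. The median over all genes tested was between -0.01 and 0.01 in each comparison.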

How the data were processed

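The deposited matrices hold whole-number UMI counts per gene and cell barcode for 32285 genes. They were made with Cell Ranger 6.0.0 after bcl2fastq 2.20.0.422, per the submitters' processing notes, which name the build mm10, and were not normalized by the authors, as the counts show. Gene symbols are those of the files. Places are from RefSeq for GRCm38.p6, found for 9758 of 10009 genes tested and 78 of 93 named genes. Genes were matched by Ensembl identifier, and by symbol where that found no match.

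The mouse was the replicate. UMIs of members were summed per library, libraries with fewer than 20 members were left out, and the sums were fitted in 1 quasi-likelihood model of edgeR 4.0.16 over all 4 groups, run in R 4.3.3. It used TMM factors and filterByExpr, had no covariates, and p-values were adjusted by Benjamini-Hochberg over all genes of a comparison. CPM of single genes in the comparisons use TMM-scaled library sizes, and other CPM use the plain UMI total. Shares were compared with two-sided exact permutation tests on group means, and intervals are Wilson intervals at 95% (scipy 1.17.1). Folds of members over other cells had 10 CPM added. Doublets were called by simulated doublets among 20 neighbours on 30 principal components of 2000 variable genes, at 0.8% per 1000 cells. DESeq2 1.42.0 was an alternative. The tests were checked on simulated data.

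Named genes were, per comparison, up to 10 higher and 10 lower genes of largest log2 difference among called genes with at least 20 CPM in a group and no overlap of CPM, the 3 targeted genes, called genes of the 21 lists (459 genes, of which 458 were in the files and 384 tested, and 9 stood in more than 1 list), the 25 leading genes of members and a set of platelet and progenitor genes. The text gives a part of them, and some genes are not reported here. The members, lists and rules were chosen with earlier results of these data known. The comparisons of the receptor genotypes with MxCre, the limit of 5 members, all barcodes as denominator and the 12 Mb window were chosen after the data had been seen. Alternatives were the size factors of DESeq2, DESeq2 itself, no filter on low counts, only the groups compared, a replicate block, other limits on members, thinned counts, other gates, doublets left out and each library left out. No sequences are given, since no sequence file was used here.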

Additional observations from a re-analysis of the deposited data

Results flagged for a closer look

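In 72 groups of 4 mice tested for a lone high or low mouse, in the called named genes of Tnfr2KO and in the shares of Dnmt3a and Tnfr2KO, 6 were marked, and chance marks about 1 in 20 groups. Replicate 4, which held 20 members, was the lowest mouse for 1700037H04Rik (29.9 CPM, the others 35.8 to 36.9) and Pde5a (43.4 CPM, the others 56.9 to 57.6), and the highest for F11r (16.3 CPM, the others 7.002 to 8.38). Replicate 1 was the highest for the histone gene Hist1h1b (937 CPM, the others 536 to 602). Replicate 3 was the highest for Adgrg3 (107 CPM, the others 70.6 to 73.8) and for the neutrophil granule gene Ltf (8.56 CPM, the others 0).

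The difference between groups was unlike in members and in the other kept cells (edgeR, adjusted p below 0.05) for 14 genes of at least 20 CPM in members in Dnmt3a against MxCre. As the log2 difference in members minus that in other kept cells, platelet-related genes gave 0.98 (Cd9), 1.13 (Gng11), 0.70 (Tuba8), 1.02 (F2r), 1.55 (Rbpms2) and 2.17 (Trpc6). Neutrophil genes gave 4.80 (Chil3), 4.24 (Camp), 3.37 (Ngp), 3.08 (Ltf) and 2.58 (Wfdc21), Nkg7 gave 0.92, Nol4l 1.19 and Rpap3 gave -0.85.

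In Tnfr1KO-labelled against Dnmt3a the same measure was -9.71 for Ngp, -9.19 for Camp, -7.13 for S100a9, -6.67 for Chil3, -6.54 for S100a8, -6.22 for Lcn2, -1.09 for Fkbp11 and -0.69 for Pgam1. In Tnfr2KO against Dnmt3a it was -6.84 for Chil3, -5.59 for Ngp, -5.23 for Camp, -5.02 for Lcn2, -4.22 for S100a9 and -0.72 for Nkg7. The neutrophil genes are the granule and alarmin genes of maturing neutrophils. In members their granulocyte list summed to 390.1 CPM in Dnmt3a replicate 1, 4266 CPM in Dnmt3a replicate 2 and 286 to 1188 CPM in Tnfr1KO-labelled libraries, and the part of that in these differences was not tested.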

How the results depend on the processing

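Dnmt3a had 2 usable libraries. Summed member UMIs of the libraries tested ran from 362053 (Tnfr2KO replicate 4) to 9012524 (MxCre replicate 3), which limits levels of a few CPM. For shares, the difference of Tnfr2KO against Dnmt3a (0.0643 percentage points) became -0.0737 on thinned cells and -0.234 without the exclusion genes. That of Tnfr1KO-labelled against Dnmt3a (-0.281) became 0.0285 with all barcodes as denominator. Without 1 mouse at a time these ran from -0.488 to 0.946 and from -0.833 to 0.600. The 3 differences from MxCre kept their sign under all alternatives run (-7.24 to -3.76, -7.52 to -4.04 and -7.18 to -3.69 without 1 mouse, for Dnmt3a, Tnfr1KO-labelled and Tnfr2KO).

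Counts of called genes are given in 1 order: 153 (Dnmt3a from MxCre), 35 (Tnfr1KO-labelled from Dnmt3a), 45 (Tnfr2KO from Dnmt3a), 4 (Tnfr2KO from Tnfr1KO-labelled), then 27 and 79 (Tnfr1KO-labelled and Tnfr2KO from MxCre). Without the filter on low counts they were 442, 236, 214, 110, 187 and 268. With at least 50 members per library they were 11, 3, 17, 0 (807 at an unadjusted p below 0.05 by edgeR, DESeq2 not run), 13 and 124. DESeq2 gave 233, 86, 10 and 44 for 153, 35, 4 and 79. With doublets left out 153 became 253. With only the groups compared 4 and 27 became 2 and 57, with at least 5 members 2 and 11, and with the gate on thinned counts 27 and 79 became 8 and 40. Without 1 library at a time they ran from 12 to 1512, 1 to 651, 16 to 986, 1 to 10, 7 to 37 and 23 to 113, the lowest and highest of the first 3 without Dnmt3a replicates 1 and 2. For the last range, the lowest was without Tnfr2KO replicate 2 and the highest without Dnmt3a replicate 1. For differences unlike between members and other kept cells (19, 11, 10 and 0 genes), no filter gave 134, 94, 43 and 54, and leaving out 1 library gave 15 to 106, 0 to 59, 1 to 24 and 0 to 19. The cause of these changes was not tested.

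Pairing of mice by replicate number was not shown: over 15 pairs of the same number the correlation of deviations ran from -0.203 to 0.0673 and none was over 0.1. Deviations were taken from group means, so both Dnmt3a libraries mirror each other. Their pairs, the lowest among them, cannot inform, and pairing was not excluded. With the replicate number as a block the counts were 101, 46, 81, 1, 26 and 84. Of 112 calls of named genes, 23 held without each library in turn, and none of the 112 changed its sign under the alternatives that gave it a value.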
